A study of Homo sapiens with 4 samples.

Results

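The 10 genes described here encode the elastic fibre: elastin (ELN), the fibrillins FBN1 and FBN2, the fibulins FBLN1, FBLN2 and FBLN5, the microfibril-associated proteins MFAP2, MFAP4 and MFAP5, and lysyl oxidase (LOX). They were chosen by name from the table of 61806 genes, with earlier results of these data known. Each matched 1 row, and all 10 passed the filter on low counts that left 17853 genes for testing. RNA was sequenced from U118-MG, an established human glioma line labelled wild type throughout. The NC group (2 libraries) was infected with a lentivirus carrying the negative control vector, and the SPNS2 group (2 libraries) with the same pCDH-CMV-MCS-EF1-puro backbone carrying SPNS2, whose protein exports the signalling lipid sphingosine 1-phosphate. All groups therefore share the cell line, the infection and the vector, and whether the infected cells were kept as a pool or as clones is not given in the sources used here. The labels number the libraries of a group as replicates without saying that they came from separate cultures, so the p-values measure the spread between these libraries, which may be technical.

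Elastic fibres consist of a core of crosslinked elastin laid on a scaffold of microfibrils. Fibrillins are the backbone of the microfibrils, MFAP2 and MFAP5 bind to them, fibulins help to place elastin on them, and lysyl oxidases crosslink elastin and collagen. Fibrillin microfibrils also hold latent TGF-beta through the LTBP proteins. In brain tissue, elastic fibres are known mainly from the walls of blood vessels.

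Gene counts summed to 31353373 reads in the smallest library and 34125159 in the largest. SPNS2 itself rose from 1.35 ± 0.061 CPM to 243 ± 4.75 CPM with its vector (mean ± SD, n = 2 libraries per group; CPM are a gene's reads relative to its library's total, scaled by TMM factors), which matched the labels. Libraries of 1 group had Spearman correlations of 0.983 and 0.984 over the tested genes, and libraries of different groups 0.947 to 0.949. Of 10 astrocyte and glioma markers, 6 were under 1 CPM in every library, among them GFAP, AQP4, OLIG2 and SOX2, and S100B had no counts. The 7 fibroblast markers were all expressed, though COL3A1 was at 0.747 and 0.779 CPM in SPNS2. Their summed levels were 5307 and 5135 CPM in NC and 4325 and 4138 CPM in SPNS2. Most defining astrocyte markers were thus at or near 0 in this RNA. The whole astrocyte and glioma list still summed to 4395 and 5101 CPM in NC and 7224 and 6671 CPM in SPNS2, mostly from VIM. The glutamate transporter SLC1A3 was at 1.12 and 0.921 CPM in NC and rose 18.5-fold, to 20.2 and 17.8 CPM (edgeR adjusted p = 0.0016), VIM rose 1.49-fold, NES fell 1.78-fold and CD44 did not pass.

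ELN fell 77.0-fold, FBN1 2.38-fold and FBLN1 2.81-fold in the SPNS2 cells, and LOX rose 1.35-fold. By the quasi-likelihood test of edgeR with Benjamini-Hochberg adjustment over all tested genes, 4 of the 10 genes were called at an adjusted p under 0.05, 1 higher and 3 lower. Over all tested genes, 23.4% were called, 12.1% higher and 11.3% lower, and 5.56% were called lower with a fold of at least 2, as the 3 lower members were. The median log2 fold change of the 10 genes was -0.37, against -0.01 over all tested genes. The groups did not overlap at 8 of the 10 genes, while this held for 66% of all tested genes, so that count is close to the background. When libraries were scaled by their totals alone, 0 members were called higher by edgeR (2 at an unadjusted p under 0.05) and 3 lower. Over all 17853 tested genes, this scaling gave 1852 called higher and 2289 lower, against 2161 and 2010 with TMM factors.

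**Figure D1:**
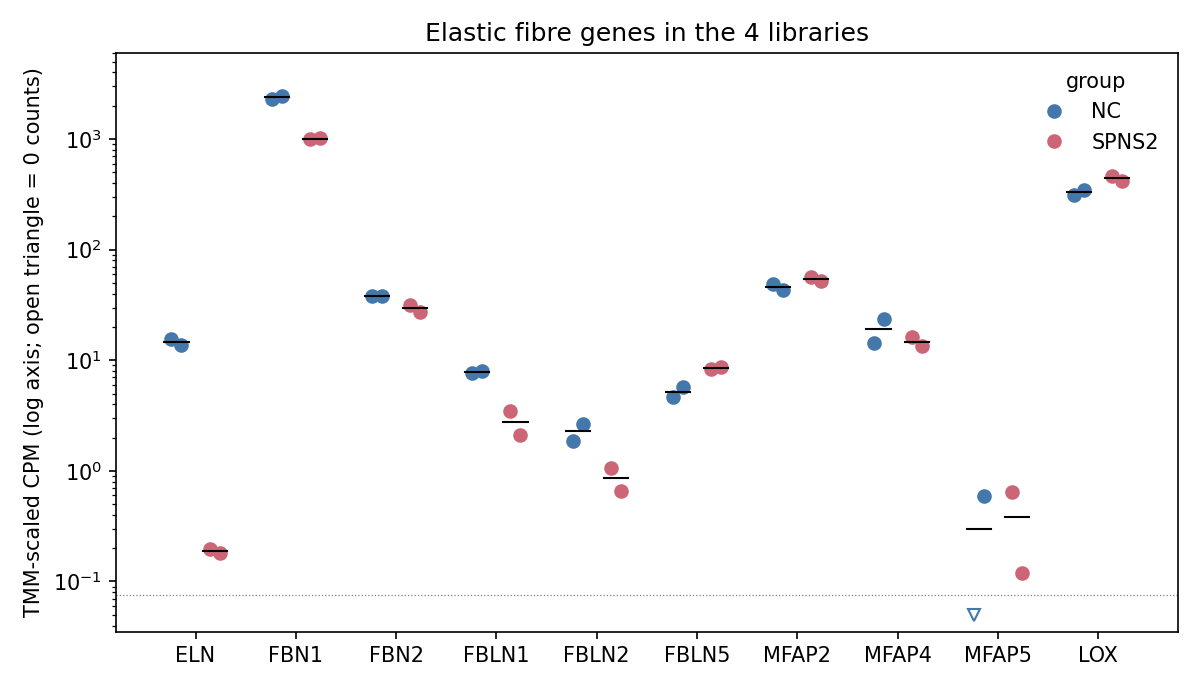
Level of each of the 10 genes in each library, in TMM-scaled CPM on a log axis. Points are libraries, black lines are group means, and the open triangle below the dotted line is a library with 0 counts. ELN drops from 15.7 and 13.7 CPM to 0.195 and 0.180 CPM, and FBN1 and LOX are the most abundant members in every library.

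ELN encodes tropoelastin, the soluble monomer of the fibre's core. It lies on chromosome 7 from 74027789 to 74069907 on hg38, on the forward strand. The NC libraries held 504 and 460 ELN reads and each SPNS2 library 6, or 15.7 and 13.7 CPM against 0.195 and 0.180 CPM. The lower NC library was thus far above the higher SPNS2 library, and the SPNS2 values had exact Poisson 95% intervals of 0.0715 to 0.424 CPM and 0.0660 to 0.391 CPM, which cover counting error only. The log2 fold change was -6.27 (SE 0.23, edgeR adjusted p = 0.0011), and the 4 pairs of an SPNS2 with an NC library gave -6.45 to -6.13. DESeq2 and limma-voom gave larger standard errors, 0.50 and 0.54. With 6 reads in each SPNS2 library, the size of the fold is less certain than the edgeR error and the pairs show. ELN had the 149th lowest log2 fold change of the 17853 tested genes. It passed the low-count filter through the NC libraries alone. In bulk RNA, fewer cells that express a gene and less RNA per cell cannot be told apart.

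Genes around ELN showed no such change as a group. The 50 nearest tested genes, 25 on each side, had a median log2 fold change of 0.02, with 5 called higher and 3 lower. Among all tested genes, 12.1% were called higher and 11.3% lower. Of the tested genes on 7q, 6 had a lower value than ELN and 562 a higher one. ELN-AS1, an annotated antisense RNA within the ELN span (74059576 to 74062284), was read 24 and 32 times in NC and 9 and 14 times in SPNS2 (log2 fold change -1.24, SE 0.47, edgeR adjusted p = 0.136). The strand setting of the counting is not given in the sources used here, so reads of ELN and ELN-AS1 cannot be told apart with certainty. ELN has 34 annotated transcripts, which these gene counts do not separate.

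Of the fibrillins, the abundant FBN1 fell and the much less abundant FBN2 did not pass the test. FBN1, the main fibrillin of adult microfibrils and the gene mutated in Marfan syndrome, lies on chromosome 15 from 48408306 to 48645849, on the reverse strand. It was at 2323 and 2467 CPM in NC and at 1001 and 1013 CPM in SPNS2. The groups stood well apart, and the SPNS2 libraries differed from each other less than the NC libraries did. Its log2 fold change was -1.25 (SE 0.05, edgeR adjusted p = 0.0011), with -1.30 to -1.20 over the library pairs. FBN2, a fibrillin known for its role in development, lies on chromosome 5 from 128257909 to 128659185, also on the reverse strand. It was at 38.2 and 38.1 CPM in NC and at 31.3 and 27.5 CPM in SPNS2, lower in each SPNS2 library. Its log2 fold change of -0.38 (SE 0.11) missed the threshold (edgeR adjusted p = 0.0722), was called by DESeq2 (adjusted p = 0.0427), and moved to -0.81 (edgeR adjusted p = 0.0147) when the median of its chromosome arm was removed.

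Per kilobase of exon, which allows levels of different genes to be set side by side, the NC libraries held 145 and 154 CPM per kb of FBN1 and 2.90 and 2.89 CPM per kb of FBN2. In the SPNS2 libraries the levels were 62.4 and 63.1 for FBN1 and 2.38 and 2.08 for FBN2. The ratio of FBN2 to FBN1 was 0.0194 ± 0.00087 in NC and 0.0355 ± 0.00361 in SPNS2. FBN1 remained the predominant fibrillin in each library while the ratio was higher in the SPNS2 libraries. An exact permutation test of 2 against 2 libraries cannot go below p = 0.33, so no test of this ratio is given. By level per kilobase, FBN1 ranked 166th of 17382 genes in NC and 599th in SPNS2.

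The sequences before the annotated starts of the fibrillin genes are shown because FBN1 was called lower and its paralogue FBN2 was not, with that of LOX, which was called higher. The difference between the changes of these genes was not tested. RefSeq entries on GRCh38.p14 were found for 7 of the 10 members, with 12 starts. Each run covers up to 250 bases before the first listed start, 5' to 3' on the gene's strand, and for LOX the last 101 bases before that start are left out because they lie in an annotated exon. FBN1 lies at chr15:48644971-48645220 (reverse), FBN2 at chr5:128538246-128538495 (reverse) and LOX at chr5:122078361-122078509 (reverse). The RefSeq start of FBN2 lies 120940 bases inside the gene's GENCODE span and that of FBN1 879 bases inside. Capitals mark matches, on either strand, to the GC box (GGGCGG), the AP-1 motif (TGANTCA), the TEAD motif (GGAATG), the CCAAT box, spelled so, or the TATA box, searched as TATAAA. No searched motif overlapped another in these runs.
FBN1: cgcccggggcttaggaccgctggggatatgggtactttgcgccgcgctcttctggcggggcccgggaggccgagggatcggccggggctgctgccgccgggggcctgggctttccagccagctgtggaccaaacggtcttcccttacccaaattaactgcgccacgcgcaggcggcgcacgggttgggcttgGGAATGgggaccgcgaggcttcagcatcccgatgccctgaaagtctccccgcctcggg
FBN2: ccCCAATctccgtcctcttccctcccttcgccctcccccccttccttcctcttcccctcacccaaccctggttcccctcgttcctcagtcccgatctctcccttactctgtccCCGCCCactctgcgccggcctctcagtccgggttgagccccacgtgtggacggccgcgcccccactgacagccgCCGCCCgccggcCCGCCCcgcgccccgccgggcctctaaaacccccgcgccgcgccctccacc
LOX: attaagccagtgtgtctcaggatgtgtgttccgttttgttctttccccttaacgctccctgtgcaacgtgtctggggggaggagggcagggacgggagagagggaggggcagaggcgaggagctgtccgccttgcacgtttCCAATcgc
FBN1 held the TEAD motif once, beginning 58 bases before the start, and none of the other motifs. FBN2 held the GC box, read on the opposite strand, at 137, 63 and 51 bases before its start, and the CCAAT box at 248. LOX held the CCAAT box at 109 bases. Of all 35116 RefSeq windows of 250 bases, 11.9% held the TEAD motif, 42.6% the GC box and 32.0% the CCAAT box. The TATA box was found in 10.7% and the AP-1 motif in 6.57% of these windows. In the first 149 bases of each window, the stretch shown for LOX, the CCAAT box was in 18.7%. GC content was 69.6% for FBN1, 72.8% for FBN2 and 59.1% for LOX. These matches are descriptions of letters and no binding was measured.

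FBN1-DT, a long non-coding RNA that starts on the forward strand next to the FBN1 start (48645951 to 48652016) and was singled out after its values were seen, was read 60 and 60 times in NC and 19 and 19 times in SPNS2. Its log2 fold change was -1.62 (SE 0.32, edgeR adjusted p = 0.0322), so the divergent pair was lower together. FBN1 lies on 15q, where the median of 593 tested genes was -0.21. Of the 50 nearest tested genes, 13 were called lower and 0 higher by edgeR, with a median of -0.24. Over all tested genes, 11.3% were called lower and 12.1% higher. With the arm median removed, FBN1 was still called at -1.04 (SE 0.05, edgeR adjusted p = 0.0015). SLC27A6, a fatty acid transport gene that runs opposite to FBN2 and overlaps its span, was read 33 and 25 times in NC and 0 times in both SPNS2 libraries. It was at least 18.9-fold lower, with 3 counts over the group taken as the floor, and it passed the low-count filter through the NC libraries alone. Without the strand setting of the counting, reads of SLC27A6 and FBN2 cannot be told apart with certainty where they overlap.

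**Figure D2:**
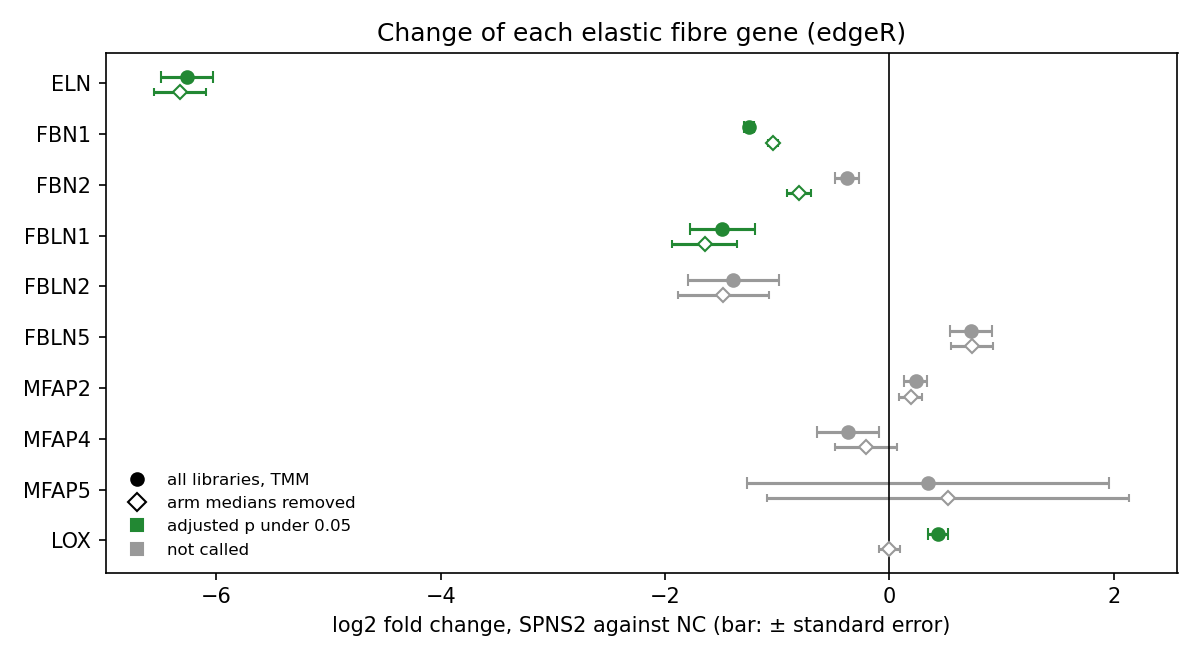
Log2 fold change of each gene, SPNS2 against NC, with bars for the standard error. Filled circles are the fit with TMM scaling, and open diamonds the fit after each chromosome arm's median was removed; green marks an edgeR adjusted p under 0.05. ELN, FBN1 and FBLN1 are green in both fits, FBN2 in the arm-adjusted fit alone and LOX in the TMM fit alone.

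Of the 3 fibulins, FBLN1 fell and FBLN2 and FBLN5 did not pass the test. FBLN1, a glycoprotein found in elastic fibres and basement membranes, lies on chromosome 22 from 45502238 to 45601135. It was at 7.71 and 7.93 CPM in NC and at 3.44 and 2.13 CPM in SPNS2. The NC libraries were alike, and the SPNS2 libraries were both lower but unequal. Its log2 fold change was -1.49 (SE 0.29, edgeR adjusted p = 0.0301). This call was kept without SPNS2 replicate 1 (adjusted p = 0.0298) and lost without NC replicate 1 (0.0973), NC replicate 2 (0.103) or SPNS2 replicate 2 (0.0571).

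FBLN2, a related fibulin on chromosome 3 (13549131 to 13638422), was at 1.87 and 2.67 CPM in NC and at 1.07 and 0.659 CPM in SPNS2. Each SPNS2 library lay below each NC library, from 60 and 90 reads to 33 and 22. The log2 fold change of -1.39 (SE 0.40) did not pass the test (edgeR adjusted p = 0.0763). Its size was near that of FBLN1, with a larger error at these lower counts.

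FBLN5, which binds elastin and cell-surface integrins and is needed for elastic fibre assembly, lies on chromosome 14 from 91869412 to 91947987. It was at 4.62 and 5.68 CPM in NC and at 8.41 and 8.63 CPM in SPNS2. The groups did not overlap and the SPNS2 libraries were close to each other. The log2 fold change was 0.73 (SE 0.19), just outside the threshold in edgeR (adjusted p = 0.0561), inside it by DESeq2 (adjusted p = 0.0241) and by limma-voom (adjusted p = 0.0475). Per kilobase, the ratio of FBLN1 to FBLN5 lay at 1.14 and 0.954 in NC against 0.279 and 0.168 in SPNS2. On joined exon length, FBLN1 and FBLN5 were thus at like levels in NC, and FBLN5 exceeded FBLN1 in both SPNS2 libraries, while FBLN2 was at 0.389 and 0.556 CPM per kb in NC and 0.223 and 0.137 CPM per kb in SPNS2.

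The microfibril-associated proteins showed no called change. MFAP2, which binds fibrillin and tropoelastin, lies on chromosome 1 from 16974502 to 16980835. It was at 49.0 and 43.4 CPM in NC and at 56.9 and 51.7 CPM in SPNS2 (log2 fold change 0.23, SE 0.10, edgeR adjusted p = 0.182). MFAP4, a fibrinogen-related protein of elastic fibres on chromosome 17 (19383442 to 19387240), was at 14.4 and 23.6 CPM in NC and at 16.1 and 13.4 CPM in SPNS2. Its groups overlapped, and the NC libraries differed from each other more than the group means did. The log2 fold change was -0.37 (SE 0.28, edgeR adjusted p = 0.402), and 0.03 without NC replicate 2.

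MFAP5, a second microfibril protein that resembles MFAP2, lies on chromosome 12 from 8637346 to 8662888. It was read 0 and 20 times in NC and 20 and 4 times in SPNS2. The library at 0 allows a level of up to 0.0936 CPM (3 counts), and the highest library was at 0.650 CPM. Each group thus held 1 library with 20 reads and 1 with few or none, and no direction can be read at this depth (log2 fold change 0.35, SE 1.61, edgeR adjusted p = 0.899). Left-out libraries moved the value from -1.27 (without SPNS2 replicate 1) to 6.63 (without NC replicate 2). Per kilobase, MFAP5 was at most 0.0103 of MFAP2 in any library.

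LOX, the copper enzyme that oxidises lysines of tropoelastin and collagen for crosslinking, lies on chromosome 5 from 122063195 to 122078360. It was at 309 and 348 CPM in NC and at 468 and 419 CPM in SPNS2. Both SPNS2 libraries were above both NC libraries, with log2 ratios from 0.27 to 0.60 over the library pairs. The log2 fold change was 0.43 (SE 0.09, edgeR adjusted p = 0.0364). The call was lost with any 1 library left out: the adjusted p was 0.119 or 0.0645 on leaving out NC replicate 1 or 2, and 0.0998 or 0.0574 on leaving out SPNS2 replicate 1 or 2. It was also lost with library totals in place of TMM factors (0.38, adjusted p = 0.0512).

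LOX and FBN2 lie 6.18 Mb apart on 5q. The 701 tested genes of this arm had a median log2 fold change of 0.43 and quartiles of 0.00115 and 0.746. Among them, 239 were called higher and 30 lower, where 12.1% and 11.3% of all tested genes were. LOX stood at the arm's median: 351 of the arm's other genes had a lower value and 349 a higher one. FBN2 had 91 below it and 609 above it. The 50 tested genes nearest to LOX had a median of 0.37 with 17 called higher. Those nearest to FBN2 had 0.35 with 16 called higher. These sets of nearest genes overlap, with SLC27A6 and SNCAIP in both, so they are not separate observations. SRFBP1, which overlaps LOX on the opposite strand, rose too (log2 fold change 0.78, SE 0.09, edgeR adjusted p = 0.0099). Without the strand setting of the counting, reads of LOX and SRFBP1 cannot be told apart with certainty. With arm medians removed, the share of all genes called was 18.3%, and 0 members were called higher and 4 lower. LOX then stood at 5.3e-05 on the log2 scale, which only restates its place at the subtracted median. FBN2 joined ELN, FBN1 and FBLN1. The fit takes each arm median, estimated from these same libraries, as known without error. Whether the arm's shift sets the value of LOX was not tested.

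**Figure D3:**
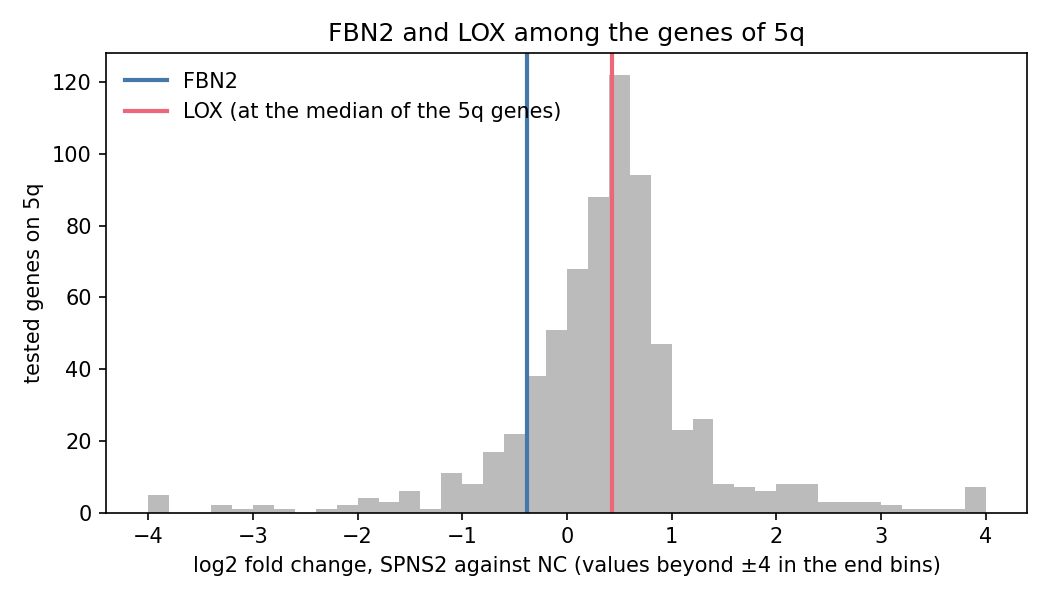
Histogram of log2 fold changes, SPNS2 against NC, of the 701 tested genes on chromosome arm 5q, with values beyond ±4 in the end bins. Vertical lines mark FBN2 at -0.38, in the lower tail, and LOX at 0.43, at the median of the arm.

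The 7 members other than LOX, FBN2 and FBN1 lie on arms with medians between -0.17 and 0.16. Removal of the arm median moved FBLN1 to -1.65 (22q), FBLN2 to -1.48 (3p), MFAP2 to 0.19 (1p), MFAP4 to -0.21 (17p) and MFAP5 to 0.52 (12p). FBLN5 stayed at 0.73 on 14q, where 509 genes had a lower value and 63 a higher one. FBLN1 had 15 genes of 22q below it and 399 above it.

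The make-up of the 10 transcripts was different between the groups. FBN1 made up 61.9% ± 0.746 of their summed level per kilobase in NC and 36.3% ± 2.04 in SPNS2 (SD, n = 2). LOX made up 24.6% ± 0.715 in NC and 46.3% ± 1.37 in SPNS2. On this length, FBN1 was the most abundant member per kilobase in NC and LOX the next, and LOX came first in both SPNS2 libraries. ELN went from 0.936% ± 0.143 to 0.0166% ± 0.000145, and MFAP2 from 6.61% ± 0.921 to 10.8% ± 0.212. The summed level itself was 232 and 250 CPM per kb in NC and 179 and 167 CPM per kb in SPNS2. With the length of the longest annotated transcript in place of all exons joined, a choice made after seeing the data, FBN1 made up 65.7% in NC and 40.7% in SPNS2 and LOX 20.8% and 41.3%, and LOX came first in SPNS2 replicate 1 (42.2% against 39.2%) but FBN1 in SPNS2 replicate 2 (42.2% against 40.3%).

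**Figure D4:**
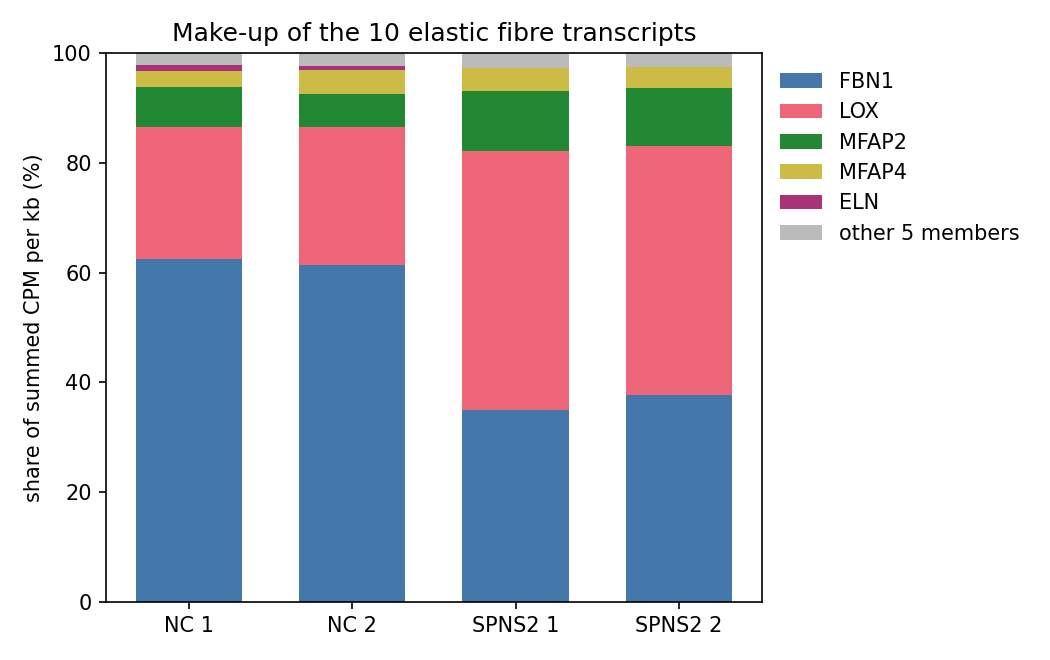
Share of each gene in the summed CPM per kilobase of the 10 elastic fibre genes, in percent, for the 4 libraries. FBN1 takes 62.5% and 61.4% of the NC bars and 34.9% and 37.8% of the SPNS2 bars, and LOX takes 24.1% and 25.1% against 47.2% and 45.3%.

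Another 82 genes of elastic fibre assembly, crosslinking, binding, breakdown and TGF-beta signalling were placed in 7 lists. Of these, 61 passed the low-count filter, 12 rose, 21 fell and 28 were not called. This made 54.1% called, against 23.4% of all tested genes (12.1% higher, 11.3% lower). The latter shares are the background for each list below. The lists were chosen with earlier results of these data known. The median log2 fold change of the 61 genes was -0.25, against -0.01 over all tested genes. Leaving out either NC library lowered the number of their calls, and it also lowered the number called over all tested genes.

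Of 9 tested genes of microfibrils, fibulins and LTBPs, 1 rose, 4 fell and 4 did not pass (median -0.68). LTBP1 and LTBP3, which tether latent TGF-beta to microfibrils, fell 1.86-fold and 2.03-fold, from 1445 ± 92.2 to 775 ± 4.81 CPM and from 129 ± 3.96 to 63.7 ± 5.78 CPM. LTBP3 lies on 11q, and its log2 fold change of -1.02 was -0.63 with the arm median removed (edgeR adjusted p = 0.0163). LTBP2, a family member that binds FBN1 but not latent TGF-beta, rose 3.14-fold, from 6.36 ± 0.0459 CPM to 22.6 and 17.3 CPM. EFEMP2, the fibulin needed for elastin crosslinking, was at 60.4 and 67.1 CPM in NC and fell 1.69-fold, to 42.8 and 32.5 CPM (edgeR adjusted p = 0.0366). It lies on 11q, and with the arm median of -0.39 removed its log2 fold change was -0.37 (adjusted p = 0.187). Its call was also lost without NC replicate 1 (0.0906), NC replicate 2 (0.128) or SPNS2 replicate 2 (0.0709).

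In the list of crosslinking and copper supply, 12 genes were tested: 1 rose, 5 fell and 6 were not called (median -0.57). LOXL1, a lysyl oxidase known for elastic fibre upkeep, fell 2.36-fold from 168 ± 35.7 to 71.2 ± 12.9 CPM, and LOXL3 fell 2.22-fold from 156 ± 3.99 to 70.4 ± 11 CPM. LOXL2, named after its values were seen, rose 2.11-fold from 126 ± 9.73 to 266 ± 7.29 CPM. LOX thus went with LOXL2 and against LOXL1 and LOXL3, and its share of the 5 lysyl oxidase transcripts per kilobase was 36.2% ± 0.390 in NC and 49.2% ± 1.23 in SPNS2. PCOLCE2, a procollagen protease enhancer, fell 6.56-fold to 20.7 ± 3.36 CPM, and the matricellular POSTN, which binds the protease that activates LOX, fell 2.74-fold to 29.9 ± 2.36 CPM. The LOXL1 call was lost without NC replicate 2 (adjusted p = 0.0578) or SPNS2 replicate 2 (0.0703).

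Of 5 tested ADAMTS and ADAMTS-like genes, 2 rose and 0 fell by edgeR, with 0 lower at an unadjusted p under 0.05 and 0 by DESeq2. THSD4, whose product binds fibrillin and promotes microfibril assembly, rose 2.34-fold to 16.8 ± 1.71 CPM, with the call lost without NC replicate 1 (adjusted p = 0.0625) or SPNS2 replicate 2 (0.0645). ADAMTS6, on 5q, rose 1.52-fold to 25.1 ± 1.08 CPM, and its value was 0.17 on the log2 scale with the arm median removed (adjusted p = 0.330). Its adjusted p was 0.0691 to 0.101 with any 1 library left out.

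Among 11 tested chaperones and receptors, 3 rose and 3 fell (median 0.08), and 5 did not pass. The integrin subunit ITGA8 fell 11.1-fold from 24.4 ± 0.168 to 2.19 ± 0.162 CPM and ITGB8, part of an integrin that activates TGF-beta, fell 2.2-fold to 67.4 ± 1.04 CPM. ITGB1 and ITGA5, which together form the classic fibronectin receptor and also bind fibrillin, rose 1.51-fold to 2097 ± 31.5 CPM and 1.30-fold to 1208 ± 54.6 CPM. The ITGA5 call was lost without NC replicate 1 (adjusted p = 0.0757) or SPNS2 replicate 1 (0.0652).

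Among proteases that can degrade elastin, 7 of 13 were tested: 3 rose, 3 fell and 1 did not pass (median -0.38). MMP12, macrophage elastase, fell from 4.12 and 5.82 CPM to 0 counts in both SPNS2 libraries. This is at least 107-fold lower with 3 counts over the group as the floor. MMP12 passed the low-count filter through the NC libraries alone, so it could only be called lower. The cathepsins CTSS and CTSL fell 2.27-fold to 15.8 ± 1.36 CPM and 2.07-fold to 412 ± 21.7 CPM. MME, neprilysin, rose 1.95-fold to 858 ± 205 CPM, a call lost without NC replicate 1 (adjusted p = 0.101) or NC replicate 2 (0.0942). Of 7 tested inhibitors, TIMP3 rose 2.45-fold to 354 ± 17.3 CPM, TIMP4 fell 2.50-fold to 3.27 ± 0.252 CPM, SERPINB1 fell 1.36-fold to 31.6 ± 2.68 CPM and 4 were not called (median -0.25). The SERPINB1 call was lost with any 1 library left out (adjusted p from 0.0710 to 0.147), and that of TIMP4 without NC replicate 1 (0.0580), NC replicate 2 (0.0590) or SPNS2 replicate 2 (0.0511).

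All 10 TGF-beta genes were tested; 1 rose, 4 fell, and 5 did not pass (median -0.23). The ligand TGFB3 fell 6.82-fold from 4.84 ± 1.05 to 0.708 ± 0.239 CPM and TGFB2 fell 1.82-fold from 25.3 ± 1.19 to 13.9 ± 0.202 CPM. The receptor TGFBR2 rose 1.44-fold from 199 ± 3.80 to 287 ± 4.44 CPM, and the inhibitor SMAD7, itself a target of the pathway, fell 1.43-fold to 36.8 ± 0.947 CPM. With 1 library left out, adjusted p-values ranged from 0.0507 to 0.0588 for TGFB2, from 0.0622 to 0.0921 for SMAD7 and from 0.0302 to 0.0555 for TGFB3.

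**Figure D5:**
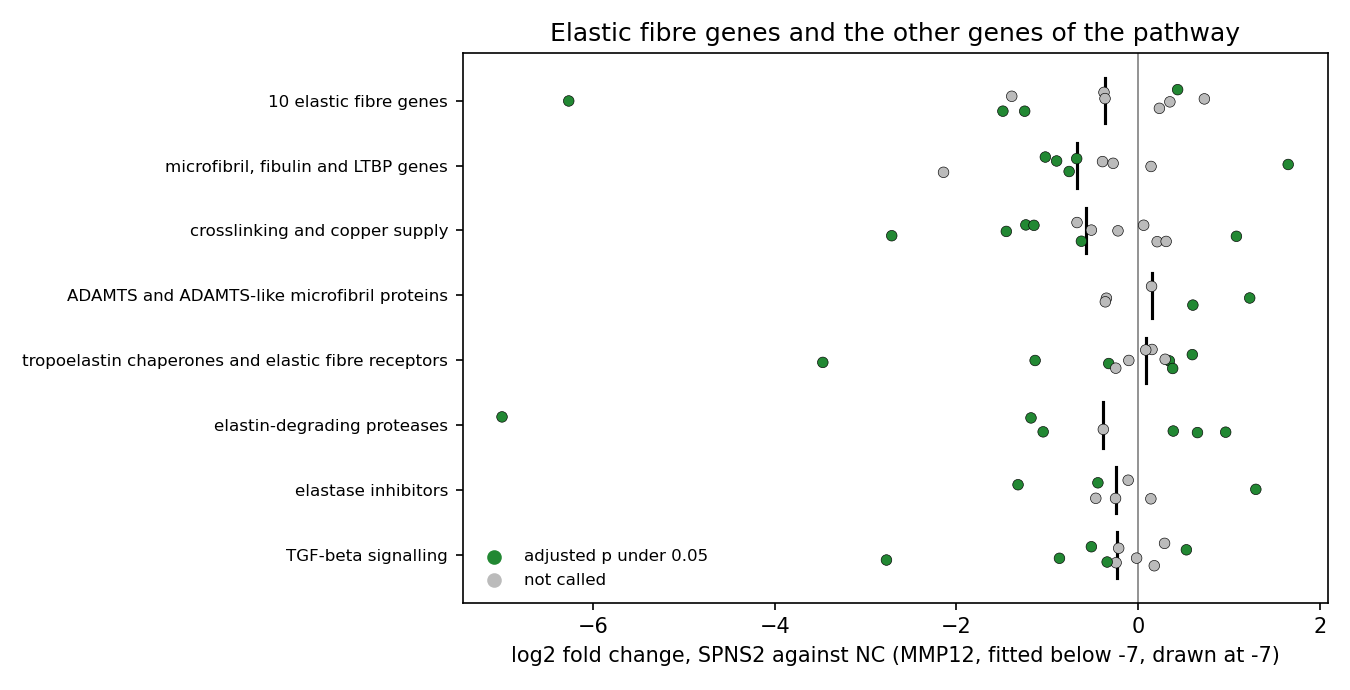
Log2 fold change, SPNS2 against NC, of each tested gene among the 10 elastic fibre genes and the 7 lists of other genes. Points are genes, green where the edgeR adjusted p was under 0.05, vertical bars are list medians, and MMP12 is drawn at -7. ELN at -6.27 stands far to the left of the other 9 elastic fibre genes, whose values lie between -1.49 and 0.73.

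Some cell type markers were called and others were not, where 23.4% of all tested genes were called. Of the 7 fibroblast markers, 2 rose, 3 fell and 2 were not called: the proteoglycans DCN and LUM fell 32.8-fold and 10.6-fold and COL3A1 9.20-fold, while COL1A1 and PDGFRB rose 1.36-fold and 1.33-fold. The smooth muscle and pericyte markers summed to between 6.86 and 10.8 CPM in each library, with 0 called by edgeR. That sum includes a second row named RGS5, an annotated antisense RNA at 1.31 to 2.68 CPM. The endothelial markers summed to between 5.12 and 8.57 CPM. Of the endothelial markers, PECAM1 rose 2.10-fold to 6.38 ± 0.475 CPM (edgeR adjusted p = 0.0465), VWF fell 6.31-fold to 0.255 ± 0.191 CPM (edgeR adjusted p = 0.0465), KDR did not pass, and CDH5 was under 0.1 CPM in every library. VWF would not have passed the low-count filter on the SPNS2 libraries alone. Of the astrocyte and glioma list, 2 rose and 1 fell, as given above. The immune markers summed to 130 and 111 CPM in NC and 76.2 and 65.8 CPM in SPNS2, nearly all from CD68, with AIF1 at 0 counts. The part of these differences in the change of ELN, FBN1 and FBLN1 was not tested.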

How the data were processed

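The 4 U118-MG RNA-seq libraries were analysed from 1 table of raw counts per Ensembl gene, deposited by the authors as whole numbers that were not normalized. Per the submitters' processing notes, Trim Galore 0.6.9, HISAT2 2.2.1, featureCounts 0.3 and hg38 were used; the sources used here do not give the annotation release, strand setting or multi-mapping rules. A row of annotation text (1) without counts was left out. Library totals (31353373 to 34125159) limit precision for the lowest genes, where Poisson intervals and the 3-count floor cover counting error only.

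Counts were filtered with filterByExpr (minimum count 10, minimum total 15), scaled by TMM, and SPNS2 was set against NC in edgeR 4.0.16 (R 4.3.3) by the quasi-likelihood F-test (two-sided), group as the only term; p-values were adjusted by Benjamini-Hochberg over all 17853 tested genes. Standard errors are the log2 fold change divided by the square root of F. Levels per kilobase use joined exons of GENCODE 29, which gave positions for 17382 tested genes; arms were divided at approximate centromeres. The script was tested on simulated counts. Alternatives were DESeq2 1.42.0, limma-voom (limma 3.58.1), RLE factors, library totals, a replicate block, arm medians removed, a stricter filter (mean of at least 1 CPM), no filter, and each library omitted in turn.

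The members and lists were chosen with earlier results of these data known. Named genes were all 10 members, SPNS2, and up to 4 called genes per list with the largest absolute log2 fold change and a mean of at least 1 CPM.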

Additional observations from a re-analysis of the deposited data

How the results depend on the processing

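The lower calls of ELN and FBN1 were kept under all 12 alternatives run, with log2 fold changes of -6.37 to -6.16 and -1.31 to -1.04. The count of called members was 4; it was 6 by DESeq2 (2 higher, 4 lower), 5 by limma-voom (2 higher, 3 lower), and 2 with the replicate block, which left ELN and FBN1; with 1 library left out it was 2 to 3. Over all genes the count was 1976 with the replicate block and 1712 to 2144 with 1 library left out, against 4171, and for the 7 lists 20 to 27 against 33. DESeq2 called 5039 of all tested genes and limma-voom 4248, also against 4171. The labels do not say whether same-numbered libraries belong together. Their deviations had a correlation of -0.0778 over 17853 genes, which cannot show whether some genes share a batch. With 1 library left out, MFAP4 ranged from -0.68 to 0.033 (without NC replicate 2) and MFAP5 from -1.27 to 6.63, with -0.63 without NC replicate 1; with a group at 1 library, that library is assumed to vary like the other group. MFAP5 had no value at a minimum mean of 1 CPM. The cause of these differences was not tested.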
